A study of Mus musculus with 6 samples.

Results

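The genes described here are 10 transcription factors that set the identity and state of group 2 innate lymphoid cells (ILC2s), namely Gata3, Rora, Id2, Bcl11b, Tcf7, Gfi1, Nfil3, Tox, Bhlhe40 and Maf. They were taken by name from a table of 17831 genes, and all 10 were among the 13623 genes with enough reads to be tested. ILC2s are tissue lymphocytes without a rearranged antigen receptor that answer alarmins such as IL-33 with IL-5 and IL-13. In the bone marrow, Nfil3, Tox, Id2 and Tcf7 act early, when a lymphoid progenitor is diverted from the T and B cell fates. Gata3, Rora, Bcl11b and Gfi1 then fix and hold the ILC2 program, and Bhlhe40 and Maf tune the output of activated cells.

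RNA was sequenced from 3 WT libraries (genotype label CB57BL/6) and 3 SIRPα KO libraries (SIRPalphatm1Ynliu/J), the latter from mice that carry a targeted allele of the inhibitory receptor SIRPα in all tissues. All mice, aged 6 to 8 weeks, received 0.5 µg of rmIL-33 into the nose on 3 days, so both groups were activated. Lung ILC2s were sorted on day 4 as CD45+, lineage-, CD127+ and ST2+ cells and kept in culture with the cytokines rmIL-2 and rmIL-7. The time in culture is 18 h in the study's results text and 24 h in a legend. The question is how the RNA of the lineage factors differed between these activated cells with and without SIRPα.

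Each library held 13980499 to 19051507 deposited reads. The codes in the labels put WT replicates 1 and 2 under code 37 and SIRPα KO replicates 2 and 3 under code 44, and the series description speaks of duplicates. Libraries that share a code also shared rare immunoglobulin variable transcripts (6 of 6 such genes in WT and 2 of 2 in SIRPα KO). These genes were picked for reads in 2 libraries of a group and few or none in the other. The library without a code mate also had the fewest reads of the immunoglobulin gene Igkc. WT replicate 3 had 1108, against 3081 and 2243 in the other WT libraries. SIRPα KO replicate 1 had 17, against 414 and 303. The shared transcripts therefore cannot show that such libraries are 1 sample. If libraries of a code are 1 sample, each group has 2 samples and the p-values below are too small. The edgeR fits were therefore also run with such libraries summed. The sums, ranges, ratios and correlations below treat each library as separate. The targeted gene, Sirpa, had 8.57, 6.83 and 4.83 CPM (read counts scaled to library size) in WT replicates 1, 2 and 3, against 3.07, 4.46 and 1.74 CPM in the SIRPα KO replicates (adjusted p = 0.115, edgeR). A count per gene does not show which exons those reads cover. The sort markers Il1rl1 (ST2) and Il7r (CD127) were present in all libraries, at 376 to 937 CPM and 53.2 to 113 CPM.

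The summed CPM of markers of some other cells, taken without the length and GC correction described below, differed by genotype. The summed level of 6 of 6 B cell genes was 216 to 479 CPM in WT and 23.1 to 84.6 CPM in SIRPα KO. That of 9 of 11 T cell genes was 221 to 289 against 133 to 142 CPM, with Cd4 at 0 in all libraries but SIRPα KO replicate 2. That of 6 of 6 NK and ILC1 genes was 14.5 to 25.9 against 1.79 to 3.73 CPM, and Eomes was at 0 in SIRPα KO replicates 2 and 3. The sums of the ILC3 (3 of 6 genes, 0.861 to 1.96 against 0.806 to 3.26 CPM), macrophage and dendritic cell (9 of 9, 101 to 167 against 129 to 173 CPM), granulocyte and mast cell (8 of 10, 7.76 to 22.1 against 1.80 to 29.3 CPM), and epithelial and stromal genes (4 of 5, 60.6 to 85.9 against 46.8 to 107 CPM) overlapped between the groups. Within the T cell sum, the short transcript Trbc2 (692 bases) alone had 132 to 179 CPM in WT and 89.7 to 95.5 CPM in SIRPα KO. With the correction, Trbc2 and Trbc1 did not pass (log2 fold change -0.13 and -0.45, adjusted p = 0.481 and 0.0736, edgeR). Cd3g and Cd247 still passed as lower (-2.65 and -1.09, adjusted p = 0.00192 and 0.0273), and Cd3e overlapped between the groups. T cells and NK cells also use Id2, Tcf7, Tox, Nfil3 and Bcl11b. The sort's lineage gate removed cells that stain for CD335, B220, CD5, CD4, CD3ε or either T cell receptor. Whether such cells contribute to the values below was not tested. In bulk RNA, fewer cells of a type and less RNA per cell cannot be told apart.

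In all, 2 of the 10 factors passed an adjusted p of 0.05 in edgeR's quasi-likelihood test, and both, Id2 and Bhlhe40, were lower in SIRPα KO. Across all genes tested, 11.7% passed, with 5.81% lower and 5.94% higher. For 3 of the 10, Id2, Bhlhe40 and Nfil3, all SIRPα KO libraries lay below all WT libraries, where 42.8% of all genes tested had groups apart in either direction and 21.2% in this one. DESeq2 called the same pair, Id2 and Bhlhe40, where it called 24.4% of its genes. The 10 factors had a median log2 fold change of -0.28, and that of all genes tested was -0.025. The median of the factors was -0.10 without WT replicate 1 and -0.59 with the length and GC correction described below, which left the median of all genes at -0.023. Gata3, Rora and Tox had log2 fold changes just above 0, and the other 7 were below 0, as were 7030 of the 13623 genes tested.

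**Figure D1:**
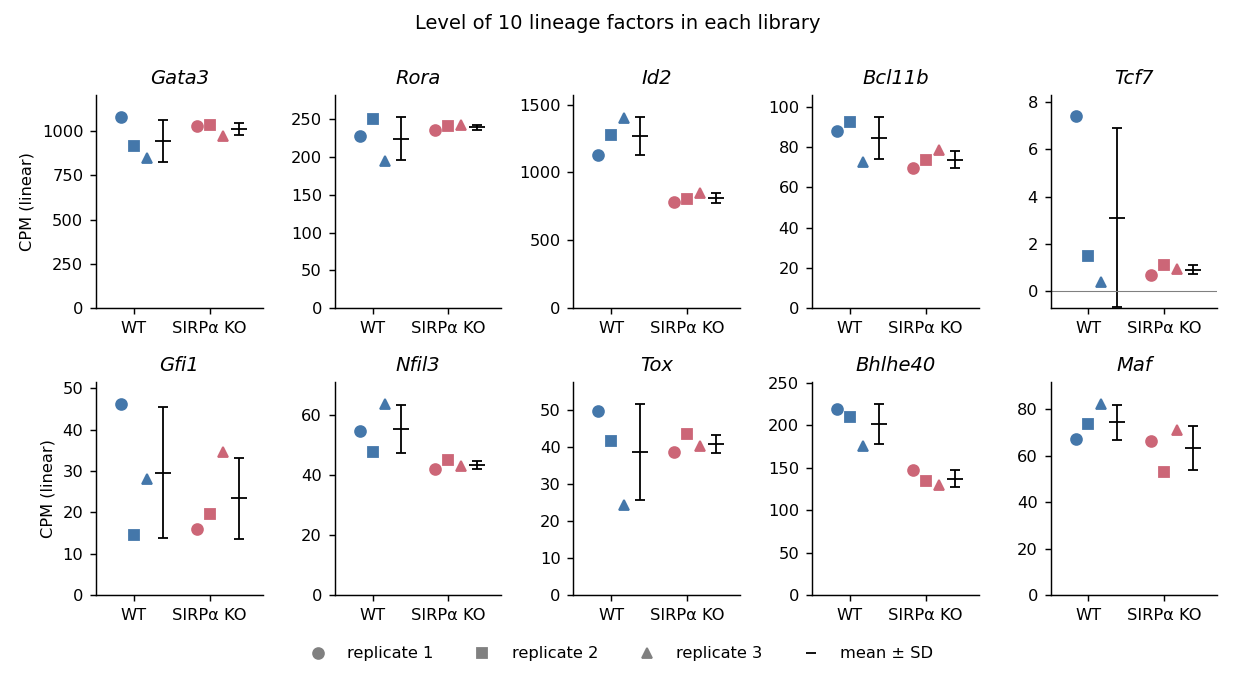
CPM (linear axis) of each lineage factor in the 3 WT (blue) and 3 SIRPα KO (red) libraries, with the mean ± SD in black. Id2, Bhlhe40 and Nfil3 are separated by genotype, and WT replicate 1 stands above the other libraries for Tcf7, at 7.42 CPM, and for Gfi1, at 46.1 CPM.

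Levels between genes were compared as CPM per kilobase of the longest annotated transcript. In WT the order was Id2 (645 CPM per kb), Gata3 (294), Bhlhe40 (64.8), Nfil3 (27.2), Rora (20.6), Maf (11.7), Bcl11b (10.4), Gfi1 (10.3), Tox (9.72) and Tcf7 (1.26). Neighbours from Maf to Tox overlapped between libraries, as Maf had 10.6 to 12.9 CPM per kb, Bcl11b 8.97 to 11.4, Gfi1 5.07 to 16.1 and Tox 6.15 to 12.5. The top 5 did not overlap with their neighbours. In SIRPα KO, Id2 still led with 412 CPM per kb and Gata3 followed with 315, then Bhlhe40 with 44.1. Rora (22.0) and Nfil3 (21.4) came next with overlapping libraries, and Tcf7 was again lowest at 0.369. Id2 and Gata3 were more abundant than 99.4% of the genes tested by mean CPM, whereas Tcf7 was above only 16.2% of them.

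Id2 was the factor with the largest drop in CPM. It encodes an inhibitor of DNA binding that pairs with E proteins and keeps them off DNA, which all innate lymphoid cells need for their development. The gene (ENSMUSG00000020644.9) lies on the minus strand of chromosome 12 of mm10 from 25093799 to 25097140. WT replicates 1, 2 and 3 had 1129, 1276 and 1403 CPM of Id2, against 782, 801 and 849 CPM in SIRPα KO replicates 1, 2 and 3. All SIRPα KO libraries were below all WT libraries, and the gap between the groups, from 849 to 1129 CPM, was wider than the range within either group. Mean levels were 1269 ± 137 (WT) and 811 ± 34.8 (SIRPα KO) CPM (SD, n = 3). This gave a log2 fold change of -0.65 (SE 0.10, 95% confidence interval -0.89 to -0.41, adjusted p = 0.0154, edgeR), or 1.57-fold lower. A length and GC correction, which removes from each library the trend of counts with transcript length and GC content, left it at -0.63 (adjusted p = 0.00878).

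The summed CPM of the 10 factors was 2926 ± 39.0 for WT against 2445 ± 19.2 for SIRPα KO (SD, n = 3), a net difference of -481 CPM. Id2 differed by -459 CPM and Bhlhe40 by -64.2 CPM, while Gata3 (66.1 CPM) and Rora (15.3 CPM) differed in the opposite direction. The partners of Id2, the E proteins Tcf3 (E2A), Tcf12 (HEB) and Tcf4 (E2-2), were then compared. None of the 3 passed the edgeR or DESeq2 test, and none had an unadjusted p under 0.05 in either. None passed with the length and GC correction either, with 1 at an unadjusted p under 0.05, Tcf4 (log2 fold change -0.74, unadjusted p = 0.0343, adjusted p = 0.149). In that fit, 3720 of the 13623 genes tested had an unadjusted p under 0.05. Tcf3 had 109 ± 6.84 CPM in WT against 105 ± 7.22 CPM without SIRPα (SD, n = 3, log2 fold change -0.05), Tcf12 had a log2 fold change of 0.49 (SE 0.30) and Tcf4 one of -0.08 (SE 0.24). The ratio of Id2 to the summed E proteins, per kb and within a library, was 12.6, 13.3 and 17.7 for WT, against 8.39, 8.12 and 10.3 for SIRPα KO. These ratios, chosen after the values of Id2 were seen, did not overlap between the groups. Like the ratios further below, they use CPM without the length and GC correction. Dividing by length leaves in place a length trend that differs between libraries. With the correction, the log2 fold change was 0.15 for Tcf3, 0.03 for Tcf12 and -0.74 for Tcf4. With 3 against 3 libraries, an exact permutation test cannot go below p = 0.1, and with 2 against 2 it cannot go below 0.333.

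Bases before the RefSeq start of Id2 are shown because Id2 was the abundant factor that fell. RefSeq windows of the 250 bases before a transcription start were available for 7 of the 10 factors (all but Tox, Bhlhe40 and Maf). For Id2 and Gata3 that start lies inside the gene span given here, because GENCODE also annotates transcripts that begin further 5′, and the stretches of Id2 overlap an exon of such a transcript. In the window of Id2, the CCAAT box (CCAAT or its reverse complement, both strands searched) occurred 3 times, and it occurred at least once in 33.85% of 32851 such windows. The stretches below (GRCm38.p6, minus strand, 5′ to 3′) start 171, 132 and 88 bases before the start, with the box in capitals.
Id2, chr12:25096234-25096263: caccctacaggcATTGGctgcgaacgcgga
Id2, chr12:25096195-25096224: agctcatactcaCCAATgggagaattcgcc
Id2, chr12:25096151-25096180: ggagcccttccaCCAATggcaattcaggga
The windows of Gata3, Rora, Bcl11b, Tcf7 and Gfi1 held no CCAAT, and that of Nfil3 held 1. The letters describe the windows and are not evidence of binding.

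Bhlhe40, a basic helix-loop-helix factor of the circadian and cytokine programs of lymphocytes, was the other factor that fell. It lies on chromosome 6 from 108660629 to 108666925 on the plus strand. The WT replicates 1, 2 and 3 had 219, 210.3 and 176 CPM of Bhlhe40, and the SIRPα KO replicates had 148, 135 and 129 CPM. The highest SIRPα KO library stayed below the lowest WT library. Mean levels were 202 ± 23.0 (WT) and 137 ± 9.57 (SIRPα KO) CPM (SD, n = 3), with a log2 fold change of -0.55 (SE 0.13, 95% confidence interval -0.84 to -0.26, adjusted p = 0.0334, edgeR), or 1.47-fold lower. Bhlhe40 and Gata3 have transcripts of like length (3113 and 3215 bases) and GC content (49.4% and 49.7%). Within a library, the ratio of Bhlhe40 to Gata3 per kb was 0.210, 0.237 and 0.214 in WT and 0.149, 0.135 and 0.137 in SIRPα KO, again without overlap. Bhlhe40 alone was already separated, so this ratio is not a separate result. Its exact permutation p was 0.1, the lowest possible, and 0.167 after Benjamini-Hochberg adjustment over 5 ratios. The ratio of Id2 to Bhlhe40 overlapped between the groups, at 8.15, 9.59 and 12.6 in WT and 8.35, 9.38 and 10.4 in SIRPα KO. The E-box that Bhlhe40 binds, CACGTG, was in none of the factors' 7 sets of windows and in 6.02% of all windows.

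Both calls were lost in several of the other fits. With the libraries of a code summed, none of the 10 factors passed the edgeR test, with 2 at an unadjusted p under 0.05. In that fit, 23% of all genes had an unadjusted p under 0.05. The log2 fold change of Id2 was then -0.68 (adjusted p = 0.131) and that of Bhlhe40 was -0.47 (adjusted p = 0.199), while 0.0686% of all genes tested passed. Leaving out SIRPα KO replicate 1, 2 or 3 also left none past the threshold, with 2 at an unadjusted p under 0.05 each time and 0.112%, 0.12% and 0.12% of all genes passing. An unadjusted p under 0.05 was reached by 21%, 20.7% and 22.5% of all genes. The adjusted p of Id2 was 0.107, 0.105 and 0.0822 in these fits, and that of Bhlhe40 was 0.130, 0.160 and 0.148. Without WT replicate 1, Bhlhe40 had an adjusted p of 0.0687, whereas Id2 had an adjusted p under 0.05 without each WT replicate in turn. Id2 had a log2 fold change between -0.72 and -0.56, and Bhlhe40 one between -0.64 and -0.49, whichever library was left out.

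**Figure D2:**
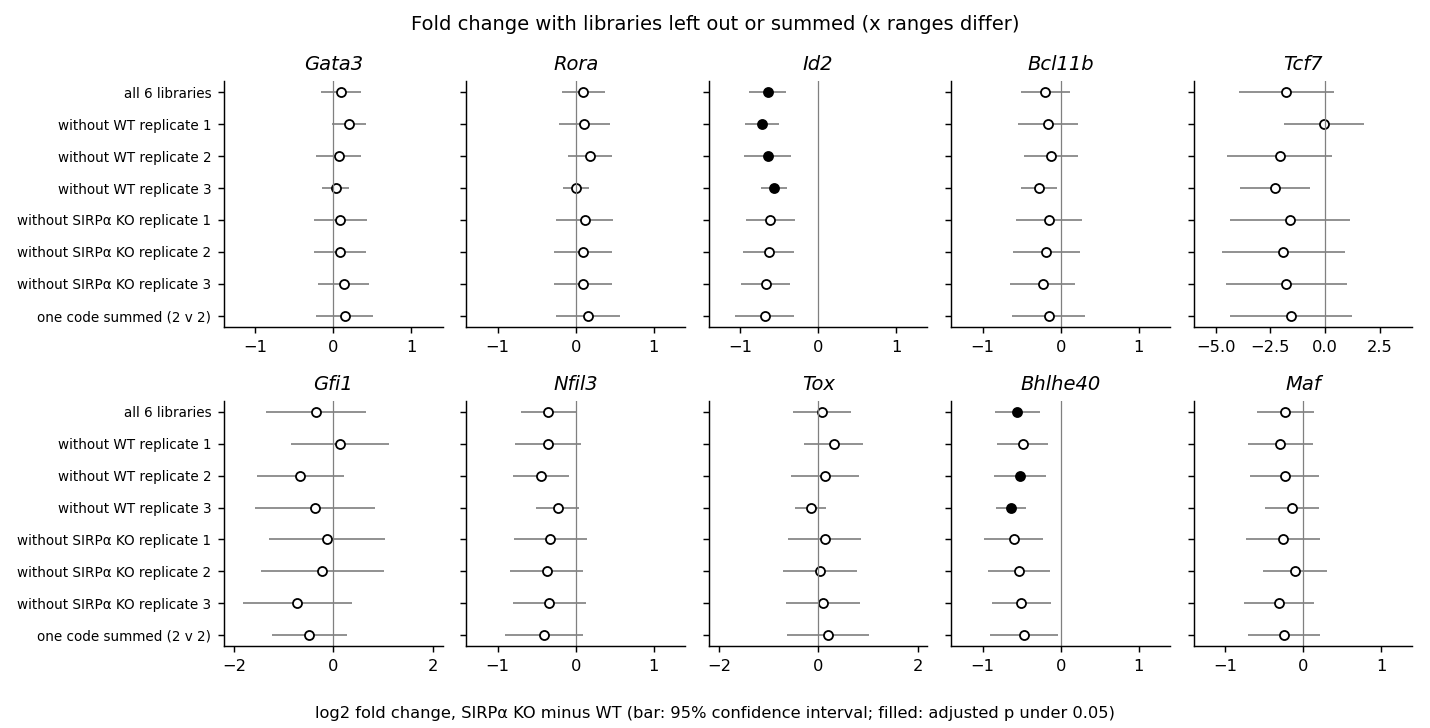
Log2 fold change (SIRPα KO minus WT, with 95% confidence interval) of each factor with all 6 libraries, without each library in turn, and with the libraries of a code summed. Filled points passed an adjusted p of 0.05 in edgeR. Id2 and Bhlhe40 lie below 0 in every fit, and Tcf7 moves from -1.76 to -0.04 without WT replicate 1.

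Gata3, the master regulator of type 2 lymphocytes, is needed to make and to maintain ILC2s and drives Il5 and Il13. It lies on chromosome 2 from 9857078 to 9890034 on the minus strand. Gata3 had 1078, 914 and 846 CPM in WT, against 1027, 1035 and 974 CPM in the SIRPα KO replicates, so the SIRPα KO libraries fell inside the WT range. Its log2 fold change was 0.10 (SE 0.11, adjusted p = 0.566, edgeR), with a 95% confidence interval of -0.15 to 0.35, which spans 0.898-fold to 1.27-fold. With the length and GC correction it was -0.02 (interval -0.20 to 0.16). The genes 9230102O04Rik and 4930412O13Rik lie within the Gata3 locus and had at most 33 and 7 reads in a library, against 12774 to 19726 reads on Gata3. Whether reads were counted by strand is not given in the sources used here, so shared reads cannot be separated. Within a library, Id2 exceeded Gata3 per kb by 1.71, 2.28 and 2.71 times in WT and by 1.24, 1.26 and 1.42 times in SIRPα KO.

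The 250 bases before the RefSeq start of Gata3 (chr2:9878601-9878850, GRCm38.p6, minus strand, 5′ to 3′) are shown beside those of Id2 because both genes are highly expressed and only Id2 passed the test. The GC box GGGCGG and its reverse complement are in capitals, and at least 1 such box was found in 32.7% of all windows.
Gata3: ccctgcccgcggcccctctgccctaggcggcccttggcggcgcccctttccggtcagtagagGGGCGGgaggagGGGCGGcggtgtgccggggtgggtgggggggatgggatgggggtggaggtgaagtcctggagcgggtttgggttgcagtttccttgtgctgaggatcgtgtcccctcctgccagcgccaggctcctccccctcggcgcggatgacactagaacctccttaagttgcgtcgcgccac
Gata3 held 2 GC boxes and Id2 held 1. Nfil3 held 9, the windows of Tcf7 held 2 and 1, and those of Rora, Bcl11b and Gfi1 held none.

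Rora encodes the nuclear receptor RORα, without which ILC2s hardly develop. It lies on chromosome 9 from 68653786 to 69388246 on the plus strand, and its longest transcript, of 10878 bases, is the longest among the 10. Rora was at 228, 250.3 and 194 CPM in WT, against 235, 241 and 242 CPM in the SIRPα KO replicates, inside the WT range. On the log2 scale the difference was 0.10 (SE 0.12, 95% confidence interval -0.18 to 0.37, adjusted p = 0.612, edgeR). The ratio of Rora to Gata3 per kb was 0.0625, 0.0809 and 0.0679 in WT and 0.0678, 0.0687 and 0.0735 in SIRPα KO. RORα binds the half-site AGGTCA, which was in 4607 of the 32851 windows and in 2 of the 7 factors with windows, Nfil3 and 1 of 2 windows of Tcf7. It is shown here in capitals as its reverse complement on the printed strand (GRCm38.p6, both minus strand). Both stretches lie before a RefSeq start but inside the gene spans given below.
Nfil3, chr13:52981040-52981069: tagcgcggcgctcggaacTGACCTactaac
Tcf7, chr11:52282596-52282625: agtcacttccggtgcccTGACCTttatagg

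The call on Rora changed with the length and GC correction, and no fit separated the 2 properties (its transcript has 40.9% GC). Genes with an average log2 CPM of 3 or more were split into 10 groups of equal size by length. Their median log2 fold change ran from -0.55 in the group of shortest transcripts to 0.47 in that of the longest. Rora and Bcl11b fall in the longest group, and Maf (6360 bases) in the next, with a median of 0.36. With the length and GC correction, the log2 fold change of Rora was -0.56 (interval -0.78 to -0.33, adjusted p = 0.0185, edgeR), opposite in sign to the uncorrected value. Bcl11b then had -0.62 (interval -0.87 to -0.37, adjusted p = 0.0192) and Maf -0.72 (interval -1.24 to -0.19, adjusted p = 0.0901). Thus 4 of the 10 factors, Id2, Bhlhe40, Rora and Bcl11b, passed with the correction, all lower, where 8.86% of all genes passed and 4.73% were lower. All 10 had a log2 fold change below 0 with the correction, as had 7082 of the 13623 genes tested. For Gata3, Tcf7, Gfi1, Nfil3 and Tox the interval spanned 0. With the correction and the libraries of a code summed, a combination chosen after seeing the data, none passed, with 5 at an unadjusted p under 0.05.

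**Figure D3:**
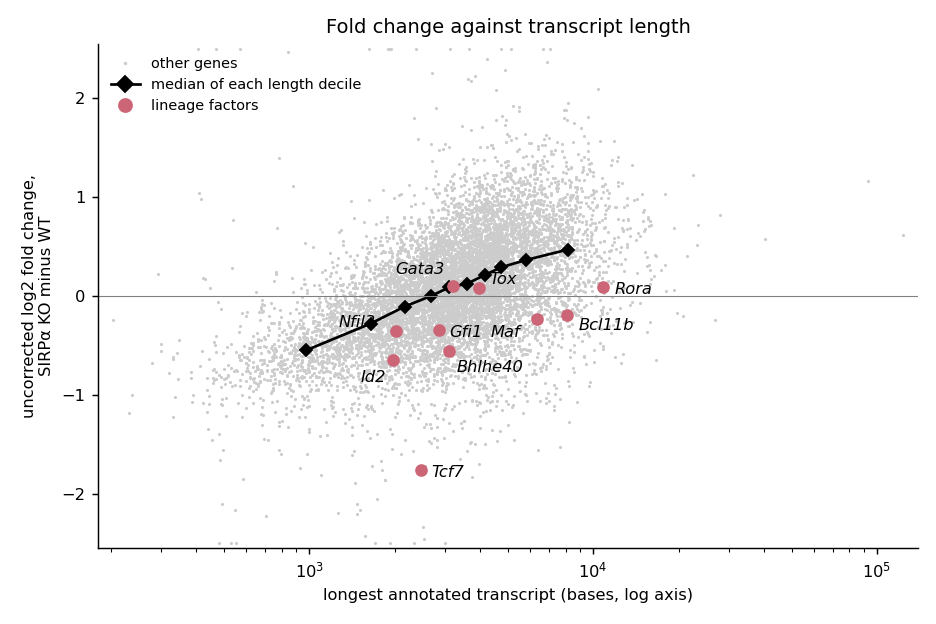
Uncorrected log2 fold change (SIRPα KO minus WT, linear axis) against the longest annotated transcript (log axis) for genes at an average log2 CPM of 3 or above, with points beyond 2.5 drawn at the edge, and for all 10 factors (red), Tcf7 being below that level. Black diamonds are the medians of the 10 length groups and rise from -0.55 to 0.47; Id2, Bhlhe40, Maf, Bcl11b and Rora are among the factors below the line.

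**Figure D4:**
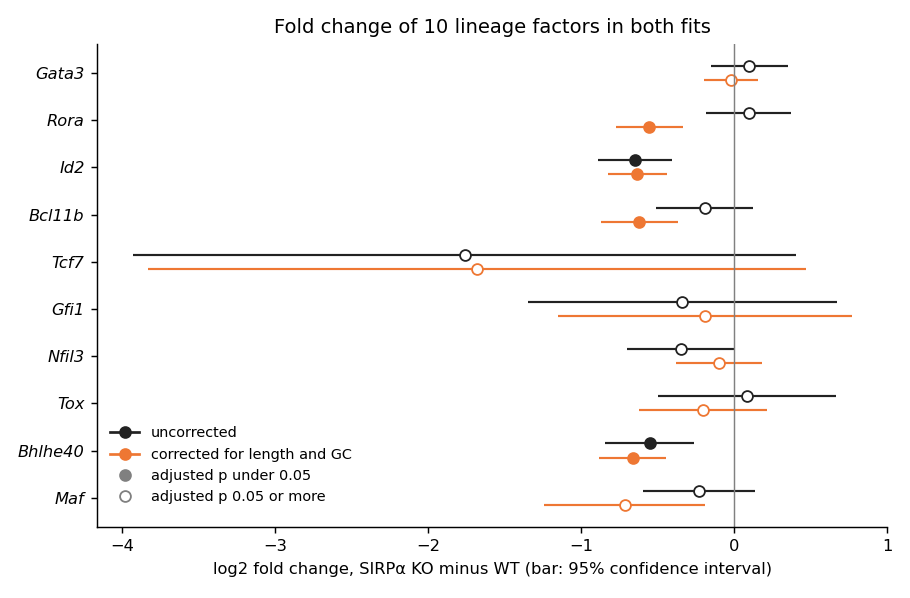
Log2 fold change with its 95% confidence interval for each factor, uncorrected (black) and with the length and GC correction (orange). Filled points passed an adjusted p of 0.05 in edgeR. Id2 and Bhlhe40 are filled in both fits, and Rora moves from 0.10 to -0.56.

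Bcl11b (chromosome 12 from 107910403 to 108003602, minus strand), a zinc finger factor that sustains the ILC2 program and restrains ILC3 genes, had 87.9, 92.4 and 72.8 CPM in WT, against 69.6, 73.3 and 78.3 CPM in the SIRPα KO replicates. Only WT replicate 3 lay within the SIRPα KO range. The uncorrected log2 fold change was -0.19 (SE 0.14, adjusted p = 0.364, edgeR). Maf (chromosome 8 from 115682942 to 115707794, minus strand), which encodes c-MAF, a bZIP factor of Il4 and Il10 transcription, had 67.1, 73.6 and 82.0 CPM in WT, against 66.2, 52.8 and 70.9 CPM without SIRPα. The groups overlapped, and the log2 fold change was -0.23 (SE 0.16, adjusted p = 0.347).

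Nfil3 (chromosome 13 from 52967209 to 52981073, minus strand), a bZIP repressor that acts upstream of Id2 in early innate lymphoid progenitors, had no overlap between the groups without passing the test. It was at 54.5, 47.6 and 63.4 CPM in WT, against 42.1, 44.8 and 42.9 CPM in the SIRPα KO replicates. Nfil3 had a log2 fold change of -0.35 (SE 0.15, unadjusted p = 0.0508, adjusted p = 0.158, edgeR). With the length and GC correction it was -0.10 (adjusted p = 0.646).

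Tox (chromosome 4 from 6686353 to 6991557, minus strand), an HMG box factor of early lymphoid progenitors, differed more among WT libraries than between genotypes. It was at 49.6, 41.5 and 24.4 CPM in WT, against 38.5, 43.4 and 40.3 CPM in the SIRPα KO replicates, with WT replicate 3 lowest. Its log2 fold change was 0.08 (SE 0.25, adjusted p = 0.845, edgeR), and it was -0.15 without WT replicate 3.

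Tcf7 (chromosome 11 from 52252371 to 52283014, minus strand), which encodes TCF-1, a Wnt-pathway factor of early progenitors and T cells, was close to the limit of detection. It had 129, 21 and 6 reads in WT, against 11, 21 and 15 reads in the SIRPα KO replicates, or 7.42, 1.49 and 0.397 CPM against 0.703, 1.10 and 0.930 CPM. WT replicate 1 stood above all other libraries, and the other two WT libraries bracketed the SIRPα KO libraries. Tcf7 had a log2 fold change of -1.76 (SE 0.94, adjusted p = 0.232, edgeR) and -0.04 without WT replicate 1. Gfi1 (chromosome 5 from 107716657 to 107726036, minus strand), a zinc finger repressor that ILC2s need for their response to IL-33, also had its highest value in WT replicate 1, with 46.1, 14.5 and 28.1 CPM in WT, against 16.1, 19.6 and 34.5 CPM in the SIRPα KO replicates. Gfi1 had a log2 fold change of -0.34 (SE 0.44, adjusted p = 0.621) and 0.14 without WT replicate 1. The gene A430072P03Rik overlaps Gfi1 and had 3 to 25 reads, against 204 to 802 on Gfi1.

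WT replicates 1 and 2, which share code 37, differed 4.97-fold for Tcf7 and 3.18-fold for Gfi1. They differed by at most 1.2-fold for the other 8 factors. Of all genes tested at an average log2 CPM of 1 or above, 1.94% were over 3 times higher in WT replicate 1 than in WT replicate 2. For 9 of the 10 factors, all but Maf, the SD of log2 CPM was lower over the SIRPα KO libraries than over the WT libraries, against 82.5% of genes at that level. The WT spread was 10.0% to 14.3% of the mean for 7 factors and reached 33.5% for Tox, 53.6% for Gfi1 and 122% for Tcf7.

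Other factors were compared by lists that group them by role, and their counts stand beside the share of all genes tested that passed, 11.7% with edgeR, 24.4% with DESeq2 and 8.86% with the length and GC correction. An unadjusted p under 0.05 was found for 4355 of the 13623 genes tested with edgeR, and for 3720 with that correction. Of 15 tested relatives of the 10 factors by family, none passed the edgeR test, with 3 at an unadjusted p under 0.05. The median log2 fold change of these 15 was -0.09. DESeq2, with 19 relatives in its fit, called 1 as lower, Bhlhe41, which had too few reads for the edgeR filter. Bhlhe41 had 99, 7 and 21 reads in WT, with WT replicate 1 far above the others, against 1, 6 and 7 reads in the SIRPα KO replicates. Among the 15 relatives tested with edgeR, abundance was compared next. The most abundant were Hlf, a PAR bZIP factor, with a log2 fold change of 0.12 (209 ± 53.6 CPM in WT, 228 ± 9.27 CPM without SIRPα, SD, n = 3), Tox2 with 0.24 and Tox4 with 0.33. With the length and GC correction these were -0.31, 0.34 and -0.07, and 1 relative passed, Dbp, another PAR bZIP factor (1.47, adjusted p = 0.0467). Of 15 other progenitor and partner factors, 1 passed, the core-binding factor Runx1, which rose from 22.8, 25.2 and 24.1 CPM in WT to 38.1, 36.7 and 33.1 CPM without SIRPα. Runx1 had a log2 fold change of 0.58 (SE 0.15, adjusted p = 0.0482, edgeR), and of 0.11 with the length and GC correction (adjusted p = 0.736). DESeq2 called 5 of the 15 (Lmo4, Mbd2, Notch1, Rbpj and Runx1). The median of that list was 0.11, and -0.19 with the correction, where none of the 15 passed and 5 had an unadjusted p under 0.05.

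Of 12 factors of activated type 2 lymphocytes, 1 rose and 1 fell. Prdm1, which encodes the repressor BLIMP-1, had 21.9, 19.8 and 12.8 CPM in WT, against 39.9, 35.7 and 44.5 CPM without SIRPα (log2 fold change 1.14, SE 0.23, adjusted p = 0.0252, edgeR). It passed with the length and GC correction too (0.76, adjusted p = 0.0296). Batf3, an AP-1 family factor best known from dendritic cells, had 3.74, 2.35 and 7.15 CPM in WT, against 0.767, 0.997 and 0.930 CPM without SIRPα (log2 fold change -2.28, SE 0.52, adjusted p = 0.0334). With the correction its adjusted p was 0.0569. DESeq2 called 6 of the 12 (3 higher, Prdm1, Hif1a and Zeb2, and 3 lower, Batf3, Bach2 and Cebpb). After the length and GC correction, 2 passed, both higher, Prdm1 and the AP-1 factor Batf (0.79, adjusted p = 0.00545). The list's median was 0.23, and -0.015 with that correction.

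Of 6 tested factors of other lymphocyte fates, 2 fell. Zbtb7b, which encodes ThPOK, the factor of the CD4 T cell fate, had 31.3, 27.8 and 28.8 CPM in WT, against 14.3, 13.7 and 11.3 CPM without SIRPα (log2 fold change -1.16, SE 0.18, adjusted p = 0.0144, edgeR). Eomes, the NK cell factor, had 70, 41 and 51 reads in WT, against 5, 0 and 0 reads without SIRPα (adjusted p = 0.0286). Both also passed with the length and GC correction. The NK and ILC1 marker sum given above moved in the same direction as Eomes, which is one of its members, and the part of other cells in these values was not tested.

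Surface and effector genes of ILC2s moved in both directions, with 3 of 21 higher, 3 lower and a median of 0.13. Il5, the eosinophil cytokine, rose by a log2 fold change of 0.49 (9192 ± 661 CPM in WT, 12951 ± 332 CPM without SIRPα, SD, n = 3, adjusted p = 0.0138, edgeR). Il2ra (CD25) and Ptprc (CD45) rose by 0.91 (adjusted p = 0.0154) and 0.90 (adjusted p = 0.0484). Thy1 fell by 2.06 (adjusted p = 0.0139), Crlf2, the TSLP receptor chain, by 1.14 (adjusted p = 0.0267), and Csf2 (GM-CSF) by 0.78 on the log2 scale (adjusted p = 0.0297). With the length and GC correction, Ptprc and Crlf2 no longer passed (adjusted p = 0.0749 and 0.228). Il13 and Ccr8 then passed as higher (log2 fold change 0.79 and 0.58) and Icos as lower (-0.56). Uncorrected, Il13 had a log2 fold change of 0.34 (adjusted p = 0.141, edgeR). When the libraries of a code were summed, none of the 11 genes called in these lists passed the edgeR test, and all 11 had an unadjusted p under 0.05. These genes were chosen for passing in the same libraries, so that count is not a separate result. Of all genes in that fit, 23% had an unadjusted p under 0.05.

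**Figure D5:**
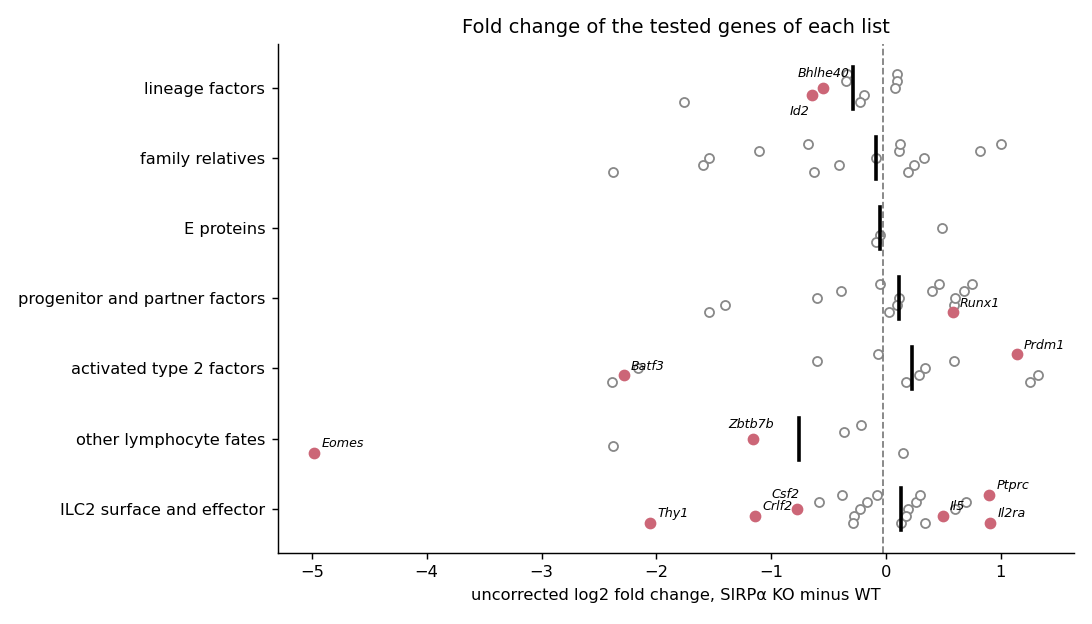
Uncorrected log2 fold change (SIRPα KO minus WT) of each tested gene of the lineage factors and of 6 lists by role. Red points passed an adjusted p of 0.05 in edgeR and are named, black bars are list medians and the dashed line is the median of all genes tested. The medians run from -0.76 for factors of other lymphocyte fates to 0.23 for factors of activated type 2 lymphocytes.

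The genes whose log2 CPM followed Gata3 most closely over the 6 libraries, out of 5916 at an average log2 CPM of 5 or above, were Ezh1 (Pearson's r = 0.986), Clk2 (0.985), Gm7964 (0.977), Narf (0.976) and Crot (0.972). These are descriptions over 6 points that share library preparation and code, and they were picked as the highest correlations.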

How the data were processed

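Bulk RNAseq of 3 WT and 3 SIRPα KO libraries was analysed, each made from 10 pg of RNA of cultured lung ILC2s. The authors aligned reads with STAR to mm10 in Partek software and deposited estimated counts per gene, not scaled for library size. The paper's methods name the GENCODE M21 annotation, and the submitters' processing notes name Partek 10.0, STAR 2.7.8 and DESeq2. The counter and strand setting are not given in the sources used here. Replicates come from the labels, and nothing says that they are separate mice, so p-values measure the spread between libraries.

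The 17691 gene columns that the record of columns does not list singly hold the same unit and entered library sizes and the fit. The deposited estimated counts were rounded, filtered with filterByExpr (10 reads, 15 overall), TMM-scaled and tested with edgeR 4.0.16's quasi-likelihood test (R 4.3.3, Benjamini-Hochberg over 13623 genes). CPM are counts over the TMM-scaled library size. Standard errors come from the F statistic. Lengths are those of the longest GENCODE M21 transcript, known for 99.0% of tested genes. The correction fitted, over 9047 genes, a spline of 5 degrees of freedom in length and another in GC content for each library and used them as offsets. DESeq2 1.42.0, other scalings, no filter, a replicate block, summed codes and leaving out each library were alternatives. Scripts were tested on simulated data. Symbols matched GENCODE for 17400 genes directly and for 188 by synonym, and 243 did not match. Upstream sequences are RefSeq's (GRCm38.p6). Figures were drawn with matplotlib 3.10.9.

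The 10 factors and the lists were chosen with earlier results of these data known. Named are the 10 factors, list genes with an adjusted p under 0.05 (otherwise the 3 of highest average CPM), and the 5 genes closest to Gata3. Genes that overlap a factor were named after their values were seen. Single-cell and protein data were not analysed here.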

Additional observations from a re-analysis of the deposited data

How the results depend on the processing

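The count of 2 factors past the threshold became 4 with the length and GC correction, 1 with no filter on low counts, and 0 with the libraries of a code summed, with or without that correction. It ranged from 0 to 2 when a library was left out. The median log2 fold change of the factors (-0.28) was -0.59 with the correction and -0.60 with correction and summing together, and ranged from -0.34 to -0.10 (without WT replicate 1) over the leave-outs. Over all genes, 1600 calls became 3170 with DESeq2, 10 with summed codes and 14 with summed codes and the correction, and 16 to 2606 over the leave-outs. The 11 list genes called became 22 with DESeq2, 0 with summed codes, with or without the correction, and 0 to 21 over the leave-outs. The log2 fold change turned negative with the correction for Gata3 (-0.020), Rora (-0.56) and Tox (-0.21), with correction and summing for Gata3 (-0.0040), Rora (-0.60) and Tox (-0.14), and with upper quartile scaling for Rora (-0.00047) and Tox (-0.0033), where the median of all genes was -0.13. Over the leave-outs, Gfi1 ran from -0.72 to 0.14 (without WT replicate 1) and Tox from -0.15 (without WT replicate 3) to 0.31. In the other settings the signs were as reported. Causes were not tested.

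Replicate numbers did not pair the libraries: deviations of same-numbered libraries correlated at -0.143, 0.191 and 0.045. With a replicate block, 2 factors and 1118 genes were called.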
